A study of Mus musculus with 6 samples.

Results

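The nuclear genome encodes most subunits of the 5 complexes of oxidative phosphorylation. They were followed here by symbol in single mouse kidney cells: names beginning Nduf with a subunit letter and number for complex I, Sdha to Sdhd for complex II, Uqcr for complex III, Cox with subunit numbers 4 to 8 and a letter for complex IV, and Atp5 for complex V, without pseudogene or Rik clone names. The rule found 82 of the 23998 gene symbols in the count tables, of which 37 belong to complex I, 4 to complex II, 8 to complex III, 16 to complex IV and 17 to complex V. It uses names only, but the gene family was chosen with earlier results of these data known. It leaves out Cox4i1, Cox4i2 and Ndufab1, whose names have another form, and it keeps Atp5s and Atp5sl, which take part in assembly rather than being subunits of the finished enzymes. Ndufa4 is counted under complex I by its name, although it is known as a subunit of complex IV. Its relative Ndufa4l2 is counted there by name too.

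Complex I passes electrons from NADH, and complex II from succinate, to ubiquinone. Complex III passes them on to cytochrome c and complex IV to oxygen. Complexes I, III and IV pump protons across the inner mitochondrial membrane, and complex V, the ATP synthase, uses that gradient to make ATP. In the kidney the largest demand lies in the tubule, while vascular smooth muscle, pericytes, mesangial cells, fibroblasts and endothelial cells, the cells sorted here, are known to differ in how far they rely on glycolysis. Several subunits of complexes I, IV and V come from gene families with tissue-restricted members. The remaining subunits of complexes I, III, IV and V are encoded by mitochondrial DNA, and 0 of those 13 genes had an entry in the count tables, so the balance between the genomes was not analysed here.

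The study sorted cells of enzymatically digested kidney by flow cytometry into plate wells and made full-length cDNA libraries by Smart-seq2, a method that reads whole transcripts of single cells without molecular identifiers. Unilateral ureteric obstruction, a surgical block of a single ureter, injures and scars the kidney, and each of 6 plates pooled wells from 3 mice: 1 healthy, 1 obstructed for 2 days and 1 for 10 days. Wells were labelled as coming from a mesenchyme gate or an endothelia gate, and each condition carried a number from 1 to 4. No strain, sex, age, genotype or sorting marker is given in the sources used here, and none of the groups is described as carrying an allele or an agent.

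After filtering, 364 healthy, 366 day 2 and 376 day 10 wells remained in the mesenchyme gate, and 380, 368 and 381 in the endothelia gate, 2235 of 2292 sorted wells in all. Plates held 116992491 to 142898570 reads on genes, and the median reads per well ran from 312617 to 447221 over the 6 groups of gate and condition, against 3264 in the 12 control wells without a cell. Counts were summed over the wells of each gate, condition and number, and these sums (n = 4 a group) are the replicates. The numbers were taken to stand for mice, which no label states, and the sums of numbers 1 and 4 each hold 2 plates. P-values therefore measure the spread between these sums, which may be partly technical. Within every plate a condition and gate filled the same columns, so a difference between conditions cannot be told apart from one between plate columns. In summed wells, fewer cells of a type and less RNA per cell cannot be told apart.

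The gates matched their labels by marker genes fixed for this work. In healthy kidneys the 10 mesenchymal markers summed to 38726 to 41522 CPM in the mesenchyme gate and 787 to 1573 CPM in the endothelia gate, and the 10 endothelial markers to 573 to 708 and 19581 to 25559 CPM. CPM expresses the reads of a gene relative to all reads on genes of the sum, after scaling by the trimmed mean of M-values (TMM). RNA of other cells moved with condition. The 19 measured tubule markers summed to 996 to 2130 CPM in healthy mesenchyme, 243 to 858 CPM at day 2 and 508 to 1991 CPM at day 10, where Aqp2 was at 0 reads. In the endothelia gate, without Cyp4b1, which endothelial wells held throughout, they summed to 81.0 to 3633, 456 to 782 and 15.5 to 91.8 CPM.

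Promoters of the members were searched for short motifs of factors known to bind promoters of mitochondrial genes. RefSeq start sites (GRCm38.p6) were found for 66 of the 82 members, and Sdhc and Ndufa4l2 were not among them. In the 250 bases before the start site, searched on both strands, the core of the NRF1 site, GCGCATG, stood before 10 of the 66 members (15.2%) and before 3.68% of 27025 genes. The ETS core CCGGAAG stood before 12 members (18.2%) and 7.83% of genes, and the YY1 motif AAGATGGC before 1 member, Atp5j (1.52%), and 1.83% of genes. NRF1 core matches stood before Atp5g2, Atp5k, Atp5l, Cox5b, Cox6a1, Ndufa11, Ndufa6, Ndufa8, Ndufb6 and Sdhb. The search counts letters in a window and does not show that a factor binds there, and where no match was found it says only that these letters are not in that window.

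Cox6a1 and Ndufa11 are shown because each holds an NRF1 core on both strands, the 2 matches overlapping in a palindrome, and Atp5b and Sdha because they are called members of the day 10 comparison given later. Capitals mark NRF1 core matches and, in Cox6a1 near the start site, a match to the ETS core on the reverse strand. All are written along the gene's strand, 5′ to 3′, and end at the base before the start site. They lie at chr5:115348959-115349208 (minus strand) for Cox6a1, chr17:56717512-56717761 (plus strand) for Ndufa11, chr10:128083057-128083306 (plus strand) for Atp5b and chr13:74350241-74350490 (minus strand) for Sdha. Neither Atp5b nor Sdha held any of the 3 motifs in this window.
Cox6a1: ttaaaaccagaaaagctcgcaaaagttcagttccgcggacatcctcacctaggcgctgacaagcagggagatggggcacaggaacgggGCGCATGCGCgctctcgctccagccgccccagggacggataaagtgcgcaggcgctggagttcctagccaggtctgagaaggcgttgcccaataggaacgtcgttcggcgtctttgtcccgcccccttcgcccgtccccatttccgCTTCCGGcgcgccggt
Ndufa11: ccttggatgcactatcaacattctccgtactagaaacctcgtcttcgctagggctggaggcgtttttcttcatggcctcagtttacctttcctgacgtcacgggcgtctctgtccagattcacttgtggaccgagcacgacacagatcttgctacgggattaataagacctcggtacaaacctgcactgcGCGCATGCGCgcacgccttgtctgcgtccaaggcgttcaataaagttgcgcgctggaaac
Atp5b: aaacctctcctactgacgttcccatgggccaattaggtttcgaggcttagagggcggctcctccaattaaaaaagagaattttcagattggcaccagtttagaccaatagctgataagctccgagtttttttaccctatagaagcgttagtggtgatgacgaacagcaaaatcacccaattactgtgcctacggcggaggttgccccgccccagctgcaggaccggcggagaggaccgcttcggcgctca
Sdha: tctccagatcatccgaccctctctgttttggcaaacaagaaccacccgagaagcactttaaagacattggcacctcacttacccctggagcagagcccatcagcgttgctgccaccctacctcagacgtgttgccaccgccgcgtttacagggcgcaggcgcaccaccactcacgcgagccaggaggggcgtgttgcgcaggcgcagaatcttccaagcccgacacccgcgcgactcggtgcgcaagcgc

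All members together took 1.84%, 1.86%, 2.11% and 1.80% of the reads on genes in healthy mesenchyme of numbers 1 to 4 (1.90% ± 0.138, SD, n = 4). At day 2 of obstruction the shares were 1.46%, 1.51%, 1.82% and 1.63% (1.61% ± 0.161). At day 10 they were 1.48%, 1.501%, 1.49% and 1.34% (1.45% ± 0.0728). The day 10 sums all lay below the healthy ones, while the highest day 2 sum lay above the lowest healthy one. In the endothelia gate the healthy sums gave 0.900%, 0.884%, 1.07% and 0.903% (0.938% ± 0.0858), about the same as 0.998%, 0.843%, 1.03% and 0.875% at day 10 (0.937% ± 0.0915). The endothelial groups overlapped, and every endothelial sum of every condition lay below every mesenchymal one.

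**Figure D1:**
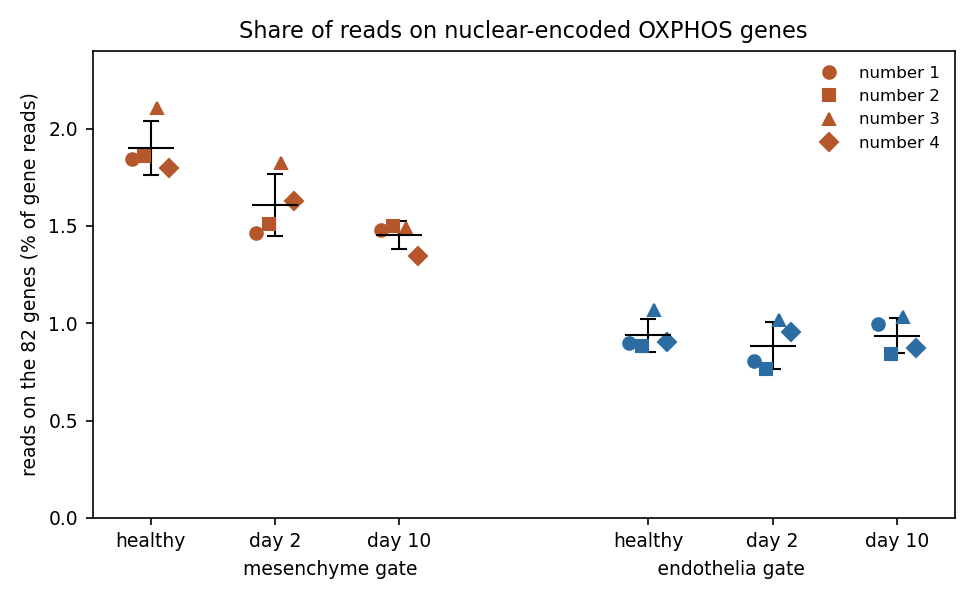
Percent of reads on genes that fell on the 82 members (vertical axis), by gate and condition, with 1 point for each number and bars for the mean and SD (n = 4). In the mesenchyme gate all 4 day 10 sums lie below the 4 healthy sums, and the endothelia gate lies between 0.763% and 1.07% in all conditions.

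In the mesenchyme gate a lower share after obstruction was also found in wells with little tubule RNA. In mesenchyme wells with under 100 CPM summed over the tubule markers, the members took 1.91% of reads in healthy wells (123 wells), 1.59% at day 2 (131 wells) and 1.56% at day 10 (251 wells). Endothelial wells under the same limit gave 0.850% in healthy wells (23 wells), 1.08% at day 2 (32) and 1.02% at day 10 (66). With Cyp4b1 left out of the limit they gave 0.858% (106 wells), 0.852% (113) and 0.939% (347). The median single well in the mesenchyme gate gave 1.83%, 1.56% and 1.38%. Without the fibroblast-like wells (11 healthy, 15 day 2 and 66 day 10 wells), the sums gave 1.93% ± 0.143, 1.63% ± 0.179 and 1.57% ± 0.0729 (SD, n = 4), so the day 10 share lay closer to the healthy one. The 10 fibroblast markers summed to 103 to 1930 CPM in healthy mesenchyme, 94.4 to 2675 CPM at day 2 and 610 to 3701 CPM at day 10. The 10 leukocyte markers summed to 13.9 to 106, 47.9 to 135 and 120 to 328 CPM, with Cd3e at 0 reads in healthy cells. Reads on genes per spike-in read had medians of 276, 339 and 322 over the numbers. The part of leukocyte RNA and of RNA content in the result was not tested.

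Each of the 5 complexes had a lower share of reads in injured mesenchyme. Complex V, the largest by reads, went from 0.711% ± 0.0366 in healthy cells to 0.585% ± 0.0429 at day 2 and 0.508% ± 0.0282 at day 10 (SD, n = 4). Complex I went from 0.638% ± 0.0613 to 0.565% ± 0.0675 and 0.515% ± 0.0279, and complex II from 0.170% ± 0.0180 to 0.129% ± 0.0129 and 0.118% ± 0.00731. Complex III went from 0.188% ± 0.0167 to 0.161% ± 0.0222 and 0.151% ± 0.0144, and complex IV from 0.195% ± 0.0187 to 0.166% ± 0.0222 and 0.161% ± 0.00768. These are descriptions of the sums, and no test was made of a share over the members. In the endothelia gate the shares at day 10 were 0.310% ± 0.0392 for complex I against 0.316% ± 0.0368 in healthy cells, and 0.327% ± 0.0264 against 0.339% ± 0.0195 for complex V.

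Levels were compared between genes per kilobase of annotated exons, with overlapping exons merged, in healthy mesenchyme. That length can exceed the length of a single transcript, and the order of genes depends on it. The catalytic beta subunit of the ATP synthase, Atp5b, stood highest at 697 CPM per kilobase. The complex IV subunits Cox8a and Cox6a1 followed at 559 and 552, then Atp5a1, the alpha subunit of the ATP synthase, at 463, and Ndufb9 at 387. Among members at 1 CPM or more, medians by complex were 106 for complex I, 152 for II, 136 for III, 65.4 for IV and 70.9 for V. In healthy endothelia the medians by complex were 55.8, 87.5, 67.7, 60.0 and 42.9 CPM per kilobase. Across the 80 members with a length, the order of levels was much alike in the gates (Spearman's rho 0.911 across genes, which are not independent replicates, from the same plates).

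The lowest of the general subunits were Ndufs5, with 7 reads in healthy mesenchyme, Atp5l at 3.09 ± 0.84 CPM, Cox7c at 4.48 ± 1.0 CPM and Ndufb4 at 8.38 ± 2.0 CPM (SD, n = 4). The annotation names pseudogenes of Atp5c1, Atp5k, Atp5l, Ndufb1 and Uqcrh, whose copies can share reads with the gene. How reads that map to several places were counted is not given in the sources used here, so levels of such subunits are uncertain and were not read as low expression.

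In the mesenchyme at day 2, 66 of the 77 members that passed the filter on low counts had a lower fitted level than in healthy cells, and the median change was -0.23 on the log2 scale, against 0.01 over all 14582 genes tested. Scaled by spike-in reads the member median turned to 0.01, against 0.25 over all genes. None was called at an adjusted p under 0.05 (edgeR's quasi-likelihood test with Benjamini-Hochberg adjustment), where 0.459% of all genes were called in either direction. At an unadjusted p under 0.05 there were 19 members, where 10.1% of all genes passed, and DESeq2 called 6, where it called 3.92% of all genes. Sdhc, Sdha, Ndufa4l2, Ndufb10 and Atp5b were lower among those that DESeq2 called. For 11 members all 4 day 2 sums lay below all 4 healthy sums, 14.3% of those tested, against 2.82% of all genes.

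At day 10, 5 members were called lower than in healthy mesenchyme and 0 higher, 6.49% of the 77 tested, where 0.658% of all genes were called lower. The 5 were Atp5b, Sdhc, Ndufa4l2, Sdha and Uqcrc1, by name from complexes V, II, I, II and III. Each was lower at day 10 in 4 of 4 numbers. Ndufa4l2, the relative of Ndufa4, is under complex I by name only, and no other member under complex I was called. In all, 68 of 77 had a lower fitted level and 37 had an unadjusted p under 0.05, where 13.7% of all genes did. The median change was -0.33 (log2), with quartiles at -0.49 and -0.13, against 0.04 over all genes. DESeq2 called 19 members lower, the 5 among them, where it called 3.49% of all genes lower. For 27 members all day 10 sums lay below all healthy sums, against 3.85% of all genes, and for 0 members above. Both comparisons use the same healthy sums, so they are not independent of each other.

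**Figure D2:**
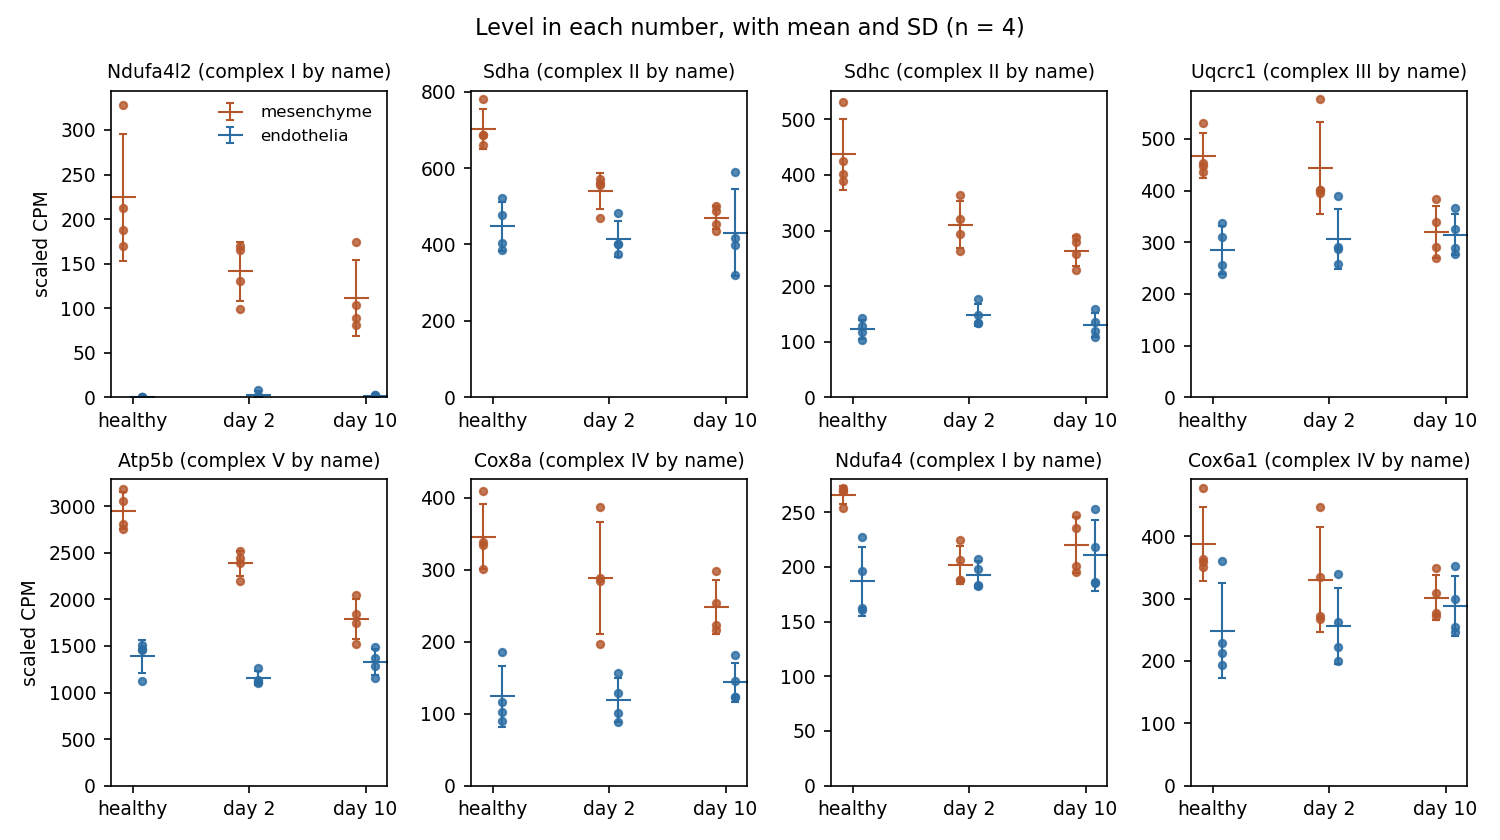
Level in TMM-scaled CPM (vertical axis, from 0) of the 5 called members and of Cox8a, Ndufa4 and Cox6a1 in the mesenchyme (orange) and endothelia (blue) gates, by condition, with 1 point for each number and bars for the mean and SD (n = 4). For Atp5b, Sdhc, Sdha and Uqcrc1 the mesenchymal points at day 10 all lie below the healthy points, and Ndufa4l2 is near 0 in the endothelial sums.

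Atp5b (chr10:128083273-128090391, plus strand, mm10) encodes the catalytic beta subunit of the ATP synthase. Positions of genes are those of the GENCODE annotation. Atp5b had 2757, 3055, 3186 and 2814 CPM in healthy mesenchyme of numbers 1 to 4, 2194, 2440, 2517 and 2393 CPM at day 2, and 1842, 2048, 1748 and 1523 CPM at day 10. The groups did not overlap at any step from healthy through day 2 to day 10. The day 10 change was -0.72 ± 0.10 (log2, SE), with an adjusted p of 0.00862 (edgeR). In the endothelia gate it had 1508, 1463, 1457 and 1127 CPM in healthy cells and 1284, 1491, 1371 and 1154 CPM at day 10, which overlapped.

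Complex II oxidises succinate in the citric acid cycle and feeds the electrons into the chain, so its subunits belong to both. Sdhc (chr1:171127165-171150603, minus strand, mm10), a membrane anchor, had 401, 426, 531 and 390 CPM in healthy mesenchyme, 294, 263, 363 and 321 CPM at day 2 and 288, 258, 279 and 228 CPM at day 10. Its healthy sums all lay above those of both injury times, and day 2 and day 10 overlapped. The day 10 change of Sdhc was -0.72 ± 0.12 (log2, SE, adjusted p 0.0205, edgeR). Sdha (chr13:74322254-74350280, minus strand, mm10), the flavoprotein that oxidises succinate, had 686, 660, 780 and 686 CPM in healthy mesenchyme, 556, 469, 562 and 570 CPM at day 2 and 501, 487, 455 and 436 CPM at day 10. Again the healthy sums stood apart from both injury times. The day 10 change of Sdha was -0.57 ± 0.11 (adjusted p 0.0328, edgeR). The other two subunits, the iron-sulfur protein Sdhb and the anchor Sdhd, had changes of -0.43 and -0.44 that did not pass the test (adjusted p 0.289 and 0.322).

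Uqcrc1 (chr9:108936633-108949623, plus strand, mm10) encodes a core protein of complex III. It had 448, 436, 532 and 454 CPM in healthy mesenchyme, 396, 401, 577 and 401 CPM at day 2 and 291, 338, 383 and 270 CPM at day 10. At day 2 a single sum, number 3, was above all healthy ones, and at day 10 all sums were below. The day 10 change was -0.54 ± 0.11 (log2, SE), with an adjusted p of 0.0459 (edgeR), the nearest to the threshold of the 5.

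Ndufa4l2 (chr10:127514967-127517154, plus strand, mm10) is a relative of Ndufa4 known to be induced by low oxygen and to be expressed in pericytes and vascular smooth muscle. It had 170, 212, 328 and 188 CPM in healthy mesenchyme, 130, 98.6, 170 and 166 CPM at day 2 and 103, 81.1, 174 and 88.7 CPM at day 10. Number 3 was highest in all conditions, and its day 10 sum was above the lowest healthy sum. Compared within numbers the day 10 change was -1.02 ± 0.19 (log2, SE), with an adjusted p of 0.0241 (edgeR). In endothelia Ndufa4l2 had 0.0494, 0.356, 0.0950 and 0.176 CPM in healthy sums, from 19 reads in all. One day 2 endothelial sum, number 3, reached 8.61 CPM, and the other three were at 0.0258 to 1.31 CPM.

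By complex, the median day 10 change in mesenchyme was -0.38 for complex I (1 of 36 tested members called, 33 with a lower fitted level), -0.51 for complex II (2 of 4, 4 lower) and -0.29 for complex III (1 of 8, 8 lower). It was -0.13 for complex IV (0 of 12 called, 8 with a lower fitted level) and -0.30 for complex V (1 of 17, 15 lower). Changes of complex IV members ran from -0.58 for Cox5a (adjusted p 0.0906, edgeR) and -0.48 for Cox8a to 0.48 for the rarely detected Cox7a1. Complexes are by gene name here, and the member called under complex I was Ndufa4l2, the relative of Ndufa4. Differences between complexes were not tested. Of complex V, Atp5a1, the partner of Atp5b in the catalytic ring, had a change of -0.53 (adjusted p 0.0608, edgeR).

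**Figure D3:**
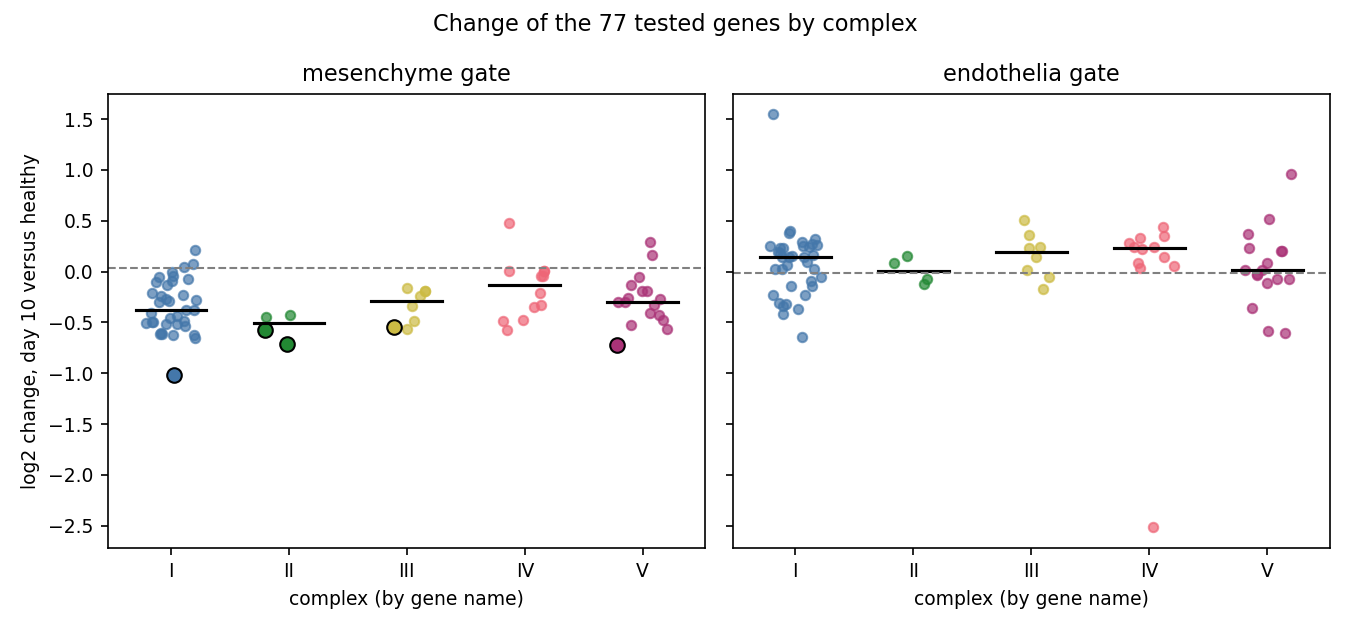
Day 10 against healthy change (vertical axis, log2, edgeR) of each of the 77 tested members in the mesenchyme and endothelia gates, by complex. Larger points ringed in black are called, black bars are medians by complex and the dashed line is the median of all genes. In the mesenchyme gate the median of every complex lies below that line, and in the endothelia gate the points scatter about it.

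From day 2 to day 10 in mesenchyme no member was called (edgeR), with a median change of -0.11 against 0.00 over all genes, and 0.0480% of all genes were called. There were 7 of 77 members at an unadjusted p under 0.05, where 8.41% of all genes passed. DESeq2 called 3, with Atp5b and Uqcrc1 lower among them, where it called 2.59% of all genes. For 7 members all day 10 sums lay below all day 2 sums, against 2.17% of all genes. The median change differed in sign between the numbers, at 0.13, -0.02, -0.28 and -0.30, and was -0.19 without number 1 and -0.03 without number 3 or number 4.

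In the endothelia gate no member was called at day 2, at day 10 or between them (edgeR), and DESeq2 called 0 in each, where it called 3.22%, 5.35% and 2.06% of all genes. At an unadjusted p under 0.05 there were 1, 3 and 1 of 77 members, where 8.52%, 10.9% and 6.29% of all genes passed. Over all 14026 genes tested, 0.150% were called at day 2, 0.649% at day 10 and 0.0143% between day 2 and day 10. Median changes of the members were -0.05, 0.14 and 0.13 (log2), against -0.02, -0.02 and 0.00 over all genes, and scaled by spike-in reads that at day 2 turned to 0.13 against 0.14. Number 1 had a median day 10 change of 0.36 and the other numbers 0.00, -0.02 and 0.02. Without number 1 the medians at day 10 were 0.06 against healthy and 0.05 against day 2, and leaving out 1 number each put that at day 2 between -0.07 (without number 2) and -0.03 (without number 3). At day 10, 52 of the 77 had a higher fitted level than in healthy endothelia. The groups did not overlap for 2 of 77 members at day 10, Atp5l and Ndufb11, both higher, where 3.48% of all genes lay above without overlap.

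Whether the gates differed in their response was tested directly. The day 10 change was higher in endothelia than in mesenchyme for 67 of 77 members, with a median difference of 0.46 (log2) against -0.13 over all genes, but no difference was called (edgeR, where 0.0186% of all 16116 genes were). There were 25 members at an unadjusted p under 0.05, where 8.55% of all genes passed. The difference was 0.66 ± 0.15 for Atp5b (SE, adjusted p 0.201) and 0.81 ± 0.22 for Sdhc (adjusted p 0.253). DESeq2 called 8, all higher in endothelia (Atp5b, Cox6a1, Cox8a, Ndufb11, Ndufb7, Sdhc, Uqcrc1 and Uqcrh), where it called 1.19% of all genes higher. For the day 2 change no difference was called by edgeR, where 0% of all genes were. There were 6 members at an unadjusted p under 0.05, where 5.43% of all genes passed, and DESeq2 called 1, Sdhc, where it called 1.35% of all genes. By edgeR a difference in response between the gates is therefore not shown.

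In healthy kidneys 58 of 77 members were called lower in the endothelia gate than in the mesenchyme gate and 0 higher, 75.3% of those tested, where 10.2% of all 16116 genes were called lower. The median was -0.89 (log2) against 0.03 over all genes, and 73 members had a lower fitted level. For 57 all endothelial sums lay below all mesenchymal ones, against 12.7% of all genes. Called members were 29 of 36 in complex I, 3 of 4 in II, 7 of 8 in III, 8 of 12 in IV and 11 of 17 in V. Both gates of a number came from the same plates. Without number 1, 38 members were called lower, where 1079 of 15731 genes were. Tubule RNA was high in some healthy endothelial sums, as given above, and in wells under 100 CPM of tubule markers without Cyp4b1 (123 mesenchymal and 106 endothelial wells) 17 members were called lower, where 4.92% of all genes were, with a median of -1.41 against -0.27 over all genes. Under the limit with Cyp4b1, which left 23 endothelial wells, 1 member was called, Ndufa4l2, where 0.943% of all genes were called lower, and the median was -2.09 against -1.61 over all genes.

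The 8 of smallest p were Sdhc, Atp5b, Cox8a, Ndufa11, Atp5g3, Ndufa4l2, Cox6c and Ndufb9. Sdhc had 102, 143, 117 and 127 CPM in healthy endothelia, below all of the healthy mesenchymal sums already given, with a difference of -1.84 ± 0.16 (log2, SE, adjusted p 5.04e-06, edgeR). For Atp5b it was -1.10 ± 0.11 (adjusted p 1.56e-05). Cox8a, a small subunit of complex IV, had 301, 338, 409 and 335 CPM in healthy mesenchyme and 90.4, 117, 186 and 102 CPM in endothelia, and its difference was -1.53 ± 0.15. None of these groups overlapped. Ndufa11, a membrane subunit of complex I, had 194, 167, 264 and 206 CPM against 59.1, 38.3, 99.5 and 65.9 CPM, a difference of -1.72 ± 0.18. Ndufb9, another membrane-arm subunit, had 405, 367, 456 and 370 CPM against 174, 84.5, 180 and 178 CPM, and Cox6c of complex IV 164, 217, 199 and 181 CPM against 76.2, 84.7, 97.0 and 78.7 CPM. Their differences were -1.43 ± 0.18 and -1.18 ± 0.15, again with no overlap. Ndufa4l2 stood apart, with a mean of 224 ± 71 CPM in mesenchyme and 0.169 ± 0.14 CPM in endothelia (SD, n = 4), found in 65.4% and 3.16% of wells.

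**Figure D4:**
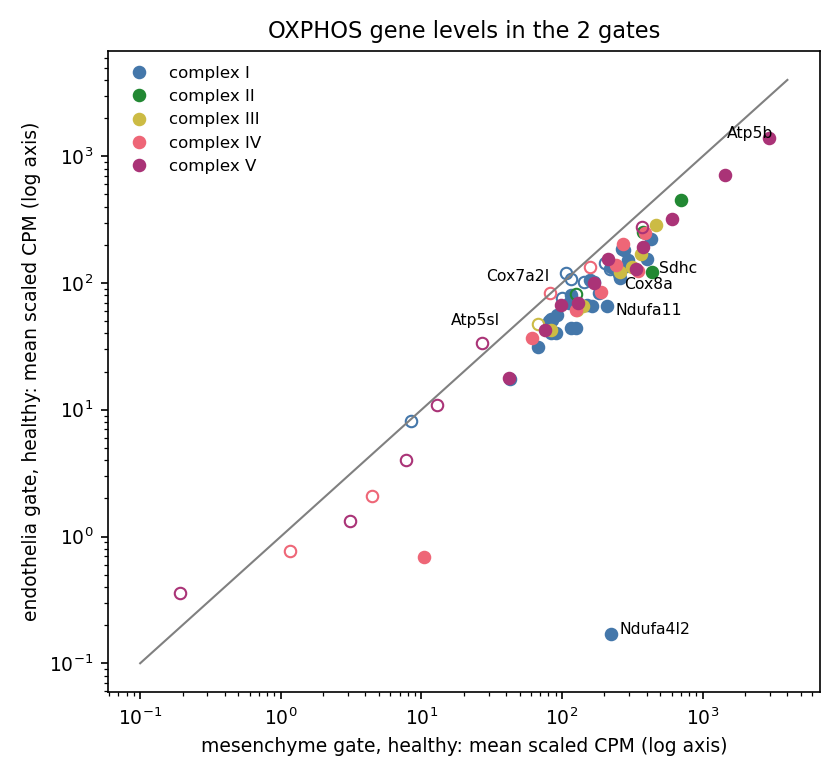
Mean level of each tested member in healthy endothelia (vertical axis, TMM-scaled CPM, log scale) against healthy mesenchyme (horizontal axis, TMM-scaled CPM, log scale), coloured by complex and filled where called, with the line of equal levels. Most members lie below the line, Ndufa4l2 by far the lowest against it, while Cox7a2l lies on it.

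Members of gene families were followed by paralogue. Ndufa4, the relative of Ndufa4l2, had 254, 272, 269 and 269 CPM in healthy mesenchyme, 188, 188, 225 and 206 CPM at day 2 and 235, 248, 195 and 201 CPM at day 10. Its healthy sums lay above those of both injury times, but the day 10 change of -0.27 did not pass the test (adjusted p 0.401, edgeR). In endothelia its means were 187, 193 and 211 CPM, so Ndufa4 was present in both gates and Ndufa4l2 almost in mesenchyme alone.

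In the Cox6a, Cox7a and Cox8 families the widely expressed forms had nearly all reads. Cox6a1 had means of 387 ± 60 CPM in healthy mesenchyme and 248.8 ± 76 CPM in endothelia, while its muscle form Cox6a2 had 0 reads in healthy mesenchyme, where 3 counts of 125045878 reads would be 0.0240 CPM. Cox8a, described above, was likewise the form detected: the muscle form Cox8b had 2 reads in healthy mesenchyme, and Cox8c had 0. Cox7a2 had 243 ± 22 CPM against 139 ± 33 CPM, and the muscle form Cox7a1 had 1.17 ± 1.1 CPM against 0.766 ± 0.56 CPM. Cox7a2l, which takes part in joining complexes III and IV, had 81.9 ± 9.0 CPM in mesenchyme and 83.2 ± 18 CPM in endothelia (SD, n = 4). Its gate difference was 0.00 ± 0.18 (log2, SE), where most complex IV members were lower in endothelia.

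Cox6b1 had 272 ± 47 CPM in healthy mesenchyme and 202 ± 30 CPM in endothelia (SD, n = 4). Its relative Cox6b2, best known from testis, was low but found in mesenchyme, at 7.56, 7.08, 12.1 and 14.9 CPM, and in 20.3% of wells. In healthy endothelia Cox6b2 had 1.90, 0, 0.0475 and 0.828 CPM and was found in 2.63% of wells. The groups did not overlap, and the difference of -5.49 ± 1.72 (log2, SE) had an adjusted p of 0.0374 (edgeR). In mesenchyme Cox6b2 had means of 10.4 CPM in healthy cells, 10.4 CPM at day 2 and 10.2 CPM at day 10.

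The membrane ring of the ATP synthase is built from subunit c, which 3 genes encode with the same mature protein. Atp5g3 had 349, 342, 330 and 314 CPM in healthy mesenchyme and 133, 114, 133 and 135 CPM in endothelia, and the gate difference was -1.37 ± 0.16 (log2, SE, adjusted p 3.92e-05, edgeR). Atp5g1 had 7.73 ± 0.66 CPM and 4.04 ± 1.1 CPM, and Atp5g2 0.191 ± 0.14 CPM and 0.356 ± 0.17 CPM (SD, n = 4). Nearly all subunit c reads were thus given to Atp5g3 in both gates, with the limit that reads of near-identical copies may be lost from the other two. Atp5g3 had 247, 269, 251 and 221 CPM at day 10 in mesenchyme, all below the healthy sums, with a change of -0.43 that did not pass the test (adjusted p 0.247).

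Sub-populations of each gate were found by clustering wells with the members left out. All values per cluster are descriptions, since the clusters were formed from these same wells. Members took a large share of reads in vascular smooth muscle-like wells. A cluster led by Myh6 held 2.18% in healthy wells (186 wells), 1.91% at day 2 (29) and 1.83% at day 10 (18). A cluster led by Itih4, Ren1 and Akr1b7 held 1.76% in healthy wells (15), 1.79% at day 2 (160) and 1.68% at day 10 (158). An unnamed mesenchymal cluster led by Ephx3 was not far below, at 1.70% in healthy wells (92), 1.55% at day 2 (94) and 1.48% at day 10 (42). Fibroblast-like wells held 0.741%, 0.977% and 0.839% in healthy (11 wells), day 2 (15) and day 10 (66) wells, which is as low as the endothelial clusters, at 0.808% to 1.07% over all conditions. Mesangial-like wells held 1.10% over all conditions (89 wells).

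**Figure D5:**
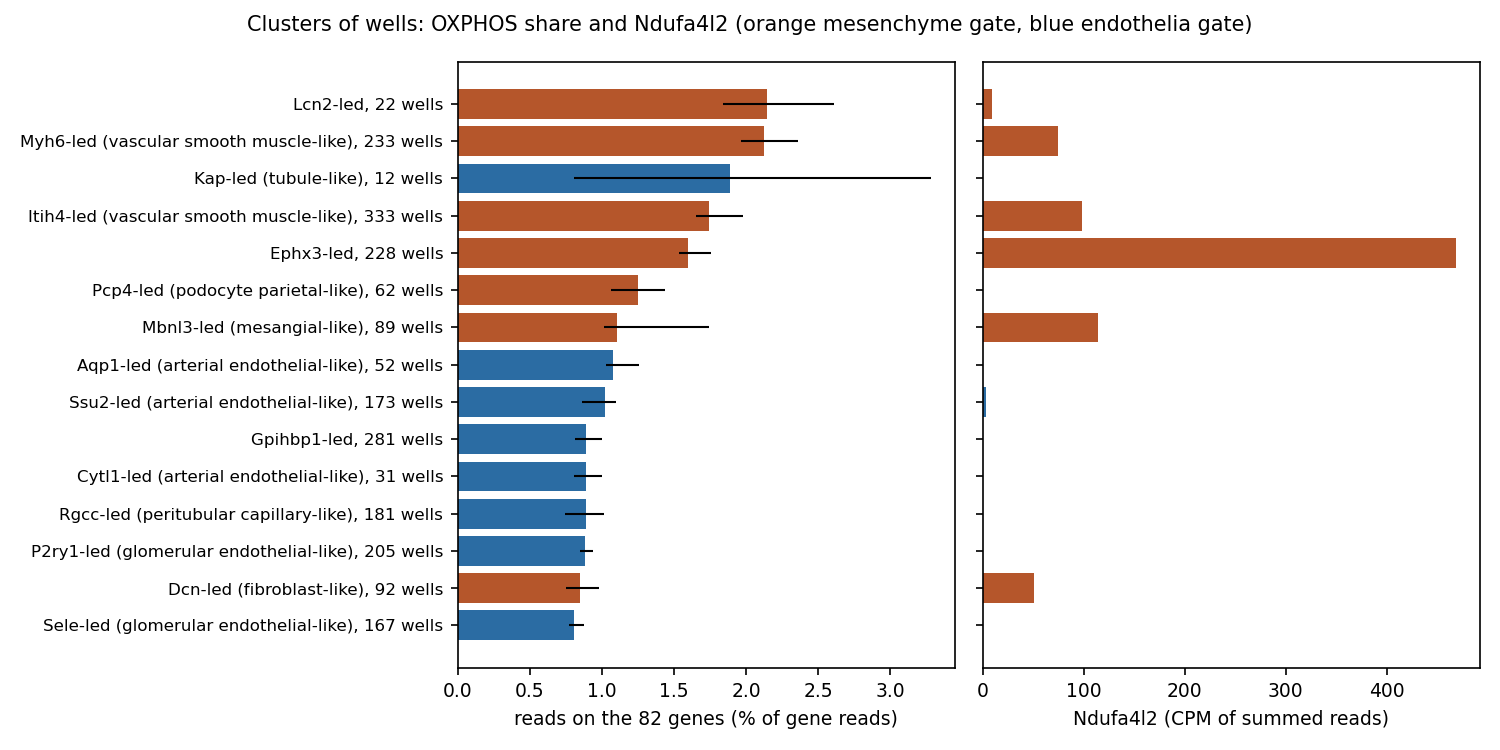
Left, percent of reads on genes that fell on the 82 members in 15 clusters of wells over all conditions, with lines for the lowest and highest number; right, Ndufa4l2 in CPM of the summed reads, both for mesenchyme-gate (orange) and endothelia-gate (blue) clusters. The smooth muscle-like clusters stand high at 2.12% and 1.74%, the fibroblast-like wells at 0.849% lie with the endothelial clusters, and Ndufa4l2 is highest in the Ephx3-led cluster at 469 CPM.

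Ndufa4l2 followed another order. An unnamed mesenchymal cluster led by Ephx3 held 610 CPM of Ndufa4l2 in healthy wells, 406 CPM at day 2 and 297 CPM at day 10, against 75.1 CPM in the Myh6-led cluster, 98.3 CPM in the Itih4-led cluster and 114 CPM in mesangial-like wells over all conditions. Those values rest on 92, 94 and 42 wells. In smooth muscle-like wells alone the day 10 change of Ndufa4l2 was 0.26 (log2, adjusted p 0.717, edgeR), the opposite sign of the whole gate. In the Ephx3-led cluster alone it was -1.29 and not called. That fit kept only sums of 10 or more wells, so its groups can hold fewer sums than those of the whole gate. The part of cell makeup in the lower level of Ndufa4l2 over the whole gate was not tested beyond these values.

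In smooth muscle-like wells alone 3 members were called lower at day 10 (edgeR), where 0.567% of the 12164 genes tested were. These were Atp5b at -0.62 ± 0.09 (log2, SE, adjusted p 0.00800), Atp5a1 at -0.55 ± 0.10 (adjusted p 0.0337) and Cox5a at -0.92 ± 0.16 (adjusted p 0.0177). The median over the 76 members tested was -0.32 against 0.01 over all genes, close to the whole gate. Most healthy wells of this class were in the Myh6-led cluster and most day 10 wells in the Itih4-led one. Without fibroblast-like wells, Atp5b remained called at -0.58 ± 0.09 (adjusted p 0.0217), the only one of the 5, where 0.289% of all genes were called lower. Sdhc was then at -0.59, Sdha at -0.43, Uqcrc1 at -0.45 and Ndufa4l2 at -0.84.

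The called members were sensitive to single sums, with 0 or 1 called when any number was left out. Over all genes, 8 of 15017 to 102 of 15138 were then called lower. Without number 1 or number 2 Atp5b was the member called, and without number 3 or number 4 there was none, with Atp5b at -0.65 (log2, adjusted p 0.100) and -0.67 (adjusted p 0.103). In wells under the tubule limit no member was called either, with Atp5b at -0.63 (adjusted p 0.183, edgeR) and a median of -0.31 against 0.30 over all genes. Scaling by spike-in reads in place of TMM raised the median of all genes from 0.04 to 0.34 at day 10 and put the member median at -0.03. On that scale 0 members were called, and Atp5b was at -0.41 (adjusted p 0.139, edgeR).

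Genes that work beside the members were followed as lists, in mesenchyme at day 10 against healthy. Over all 14582 genes, 0.658% were called lower and 97 genes higher. Of 17 citric acid cycle genes, 2 were called lower (edgeR), 17 had a lower fitted level and the median was -0.40 (log2), against 0.04 over all genes. The 2 were Suclg1 at -0.78 ± 0.13 (SE, adjusted p 0.0190), a subunit of succinyl-CoA ligase, and Pdhb at -0.85 ± 0.15 (adjusted p 0.0241), a subunit of pyruvate dehydrogenase. Of 12 other genes of the respiratory chain, 1 was called, Cox4i2 at -1.47 ± 0.22 (adjusted p 0.0119), the low-oxygen form of a complex IV subunit, and the median was -0.49. Its general counterpart Cox4i1 was at -0.29 (adjusted p 0.355). Cox4i2 was among the leading genes of the Ephx3-led cluster, which held 92 healthy and 42 day 10 wells of the mesenchyme gate. The part of cell makeup in the lower level of Cox4i2 was not tested. Of 19 glycolysis genes, 1 was called higher, Ldha at 0.79 ± 0.14 (adjusted p 0.0226), which reduces pyruvate to lactate, and the median was -0.03.

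No gene was called among 19 of fatty acid oxidation (median -0.30), 13 of mitochondrial biogenesis (median -0.10), 40 of oxidative phosphorylation assembly (median -0.08), 21 of mitochondrial import (median -0.18), 77 of the mitochondrial ribosome (median -0.15) or 90 of the cytosolic ribosome (median 0.28). The coactivator Ppargc1a was at -0.80 ± 0.40 (SE, adjusted p 0.417, edgeR) and the nuclear receptor Esrra at -0.82 ± 0.48 (adjusted p 0.521), neither past the test. Among the check genes, Kap, a transcript of proximal tubule, was called lower at -6.84 ± 0.72 (adjusted p 0.00236). The endothelial adhesion gene Pecam1 was at 1.11 and did not pass the test.

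Markers of the cells in the gate moved in the same comparison. Of 10 vascular smooth muscle markers 4 were called lower at day 10 (median -0.64, log2, edgeR), among them the smooth muscle actin Acta2 at -0.66 ± 0.09 (SE, adjusted p 0.00862). Of 9 pericyte markers 1 was called lower (median -1.37), of 10 fibroblast markers 1 was called higher (median 1.45) and of 6 fibrillar collagen and matrix genes 4 were called higher (median 2.69). Their part in the lower member levels was not tested beyond the values for single cell classes given above.

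Between the gates in healthy kidneys, the citric acid cycle had 12 of 17 genes called lower in endothelia (median -0.90, against 0.03 over all genes, edgeR), fatty acid oxidation 10 of 19 (median -0.84) and the other respiratory chain genes 7 of 12 (median -0.98). Cox4i2 differed by -6.46 ± 0.57 (log2, SE, adjusted p 6.22e-06), far more than Cox4i1 at -0.66 (adjusted p 0.00333), as Ndufa4l2 did against Ndufa4. Glycolysis had 6 of 19 genes lower and 2 higher (median -0.64). The mitochondrial ribosome had 9 of 77 called lower (median -0.38) and assembly genes 3 of 40 (median -0.22). The cytosolic ribosome had 1 of 90 lower and 6 higher (median 0.23). Over all 16116 genes, 10.2% were called lower and 1855 genes higher. Ppargc1a was called lower in endothelia at -5.23 ± 0.98 (adjusted p 0.00180), and Esrra was at -0.36 (adjusted p 0.771) and Kap at 0.71 (adjusted p 0.720). The defining genes of the gates, Acta2 and Pecam1, differed by -7.96 and 11.40.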

How the data were processed

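The authors deposited raw counts of reads per gene and per spike-in for each plate well, with a layout naming each well's gate, condition and number. Alignment used STAR and the mouse build mm10, per the submitters' processing notes. The counting tool, annotation, strand setting and treatment of multiply mapped reads are not given in the sources used here. Entries sharing a symbol (771 entries of 279 symbols) were summed. Wells with under 1000 genes or 20000 reads were left out.

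Sums per gate, condition and number were tested with edgeR 4.0.16 (quasi-likelihood test, filterByExpr, TMM, number as a block, Benjamini-Hochberg over all genes tested, threshold 0.05, R 4.3.3). The gates were compared in a joint fit. DESeq2 1.42.0 was an alternative. Wells were clustered with scanpy 1.11.5, and clusters were named from marker lists. A gene passing the filter could do so in any group: 77 of 82 members did, and Cox6a2, Cox7b2, Cox8b, Cox8c and Ndufs5 did not. Scripts were tested on simulated data.

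Named genes were all called members where 12 or fewer were called in a direction, otherwise the 8 of smallest p, the member of highest CPM per complex, the tissue-restricted and paralogous subunits, and from the other lists up to 3 of smallest p and fixed check genes. The members called by DESeq2 or without overlap were named after their values were seen. The members and lists were chosen with earlier results of these data known. Same-numbered sums deviated together only weakly (correlations of 0.00611 to 0.168 within gates), so the block rests on the plates they share. A gene that these rules would name is not reported here. SDs and SEs rest on the spread between sums, and the limit given for 0 reads covers counting error only.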

Additional observations from a re-analysis of the deposited data

Results flagged for a closer look

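Among 111 groups of 4 sums checked for a single sum far from the others, 14 had one, where chance alone would give about 1 in 20. Each is named here for the gap between that sum and the nearest of its group, and none was left out of a test. In healthy mesenchyme these were number 3 for Cox6a1 at 477 CPM and number 1 for Ndufa4 at 254 CPM. In mesenchyme at day 2 Sdha was low in number 2, at 469 CPM, and Uqcrc1 high in number 3, at 577 CPM. In mesenchyme at day 10 Cox7a2 was low in number 4, at 151 CPM, and so was the share of reads on all members, at 1.34%.

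In healthy endothelia Atp5b was low in number 4, at 1127 CPM, and Atp5g3 and Ndufb9 were low in number 2, at 114 and 84.5 CPM, while the share of reads on all members was high in number 3, at 1.07%. In endothelia at day 2 number 3 was high for Atp5b, at 1265 CPM, and for Ndufa4l2, at 8.61 CPM. In endothelia at day 10 Cox6b1 was low in number 4, at 180.3 CPM, and Cox7a1 high in number 3, at 4.90 CPM.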

How the results depend on the processing

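The 5 members called lower in mesenchyme at day 10 became 19 with DESeq2 and 15 with sums per plate (all 5 among both). Sums per plate split the plates of numbers 1 and 4, which are not separate replicates if a number stands for a mouse. The count became 3 with no filter on low counts, 3 with no replicate block and 3 in smooth muscle-like wells alone. It became 1 without fibroblast-like wells, 0 to 1 without 1 number each and 0 with spike-in scaling. It was 0 in wells under the tubule limit (with or without Cyp4b1, where the median of all genes was 0.30). In the Ephx3-led cluster alone, fitted on sums of 10 or more wells only, it was 0. Wells whose cluster and gate are of the same class gave 7, a stricter well filter 4 and wells thinned to 50000 reads 7. For the stricter filter and the thinned wells the share of all genes called lower is not given here. Those counts therefore stand without a background. The background moved too: 96 of all 14582 genes were called lower as reported and 268 of 13832 with sums per plate. With no filter it was 111 of 21311 genes, with no replicate block 54 of 14582 and in same-class wells 121 of 13828. Spike-in scaling put the median of all genes at 0.25 at day 2 in mesenchyme and at -0.39 between the gates. The cause of each change was not tested. The member median ran from -0.37 to -0.03 over these settings. Ndufa4l2 reversed in smooth muscle-like wells, to 0.26. Counts of 0 became 6 (mesenchyme day 2), 3 (day 10 against day 2), 1 and 8 (differences between gates at day 2 and day 10) with DESeq2. With sums per plate they became 2 (day 10 against day 2) and 3 (difference between gates at day 10). There 65 of 13832 and 102 of 15299 genes were called in either direction. The 58 members lower in healthy endothelia became 38 to 45 without 1 number each, where 1032 of 15693 to 1362 of 16694 genes were called lower. They became 17 in wells under the tubule limit without Cyp4b1 and 1 under the limit with it, where 23 healthy endothelial wells remained.

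The share of reads on members moved by more than the spread over numbers in day 10 mesenchyme, to 1.56% under both tubule limits and to 1.57% without fibroblast-like wells (tried after seeing the data), and under the limit with Cyp4b1 in healthy and day 2 endothelia, to 0.850% and 1.08%. Same-numbered sums did not all correlate above 0.1, so the replicate block is a matter of shared plates, and the fit with no replicate block left Atp5b, Sdha and Sdhc called. The wells under the tubule limit without Cyp4b1 and the Ephx3-led and Ssu2-led clusters alone were chosen after seeing the data. Cox6a2, Cox8b and Cox8c, with few reads, were below what this depth resolves.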

Other observations

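A few small clusters stood outside the main populations. Wells of the mesenchyme gate that were podocyte- or parietal-like held 1.248% of reads on members in a cluster led by Pcp4 (62 wells), between the fibroblast-like and smooth muscle-like wells. In that cluster Ndufa4l2 was at 0.179 CPM, nearly as low as in endothelia. A mesenchyme-gate cluster led by Lcn2, Umod and Klk1 held 2.14% (22 wells), and 12 tubule-like wells of the endothelia gate held 1.89%. These are values of single clusters with few wells, and no test was made of them.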
